A study of Caenorhabditis elegans with 2 samples.

Results

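Autosomal intronic peaks were regions of the joint peak list for tagged JUN-1, which by its description also keeps background regions. Their summits lay inside a protein-coding gene on chromosomes I to V, in no exon, away from annotated transcript starts and small structural RNA genes. Of 13085 regions in the joint list of both replicates on the ce11 genome, 10379 were autosomal, 6174 of these had their summit in a protein-coding gene and 2884 of those in no exon. Promoter windows, which reached 1000 bp upstream and 200 bp downstream of each protein-coding transcript start, removed 818 of the 2884, and summits within 250 bp of a tRNA, snRNA, snoRNA or miRNA gene removed 67 more, which left 1999 intronic peaks. The rule used positions only and no signal.

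The data were chromatin immunoprecipitation and sequencing of whole L4 larvae, the last larval stage of Caenorhabditis elegans. All worms were of strain OP234, which carries the integrated transgene wgIs234 for eGFP-tagged jun-1 on an unc-119(ed3) III mutant background, with both sexes pooled and no treatment named. There was 1 group with 2 biological replicates. The labels do not say whether the replicates came from separate cultures, so the spread between them may be technical, and the tagged copy comes in addition to whatever the endogenous gene makes. A whole animal mixes every tissue, so a peak cannot be assigned to a cell type.

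JUN-1 is the nematode relative of the AP-1 subunit JUN, a basic leucine zipper (bZIP) factor. Such proteins grip DNA as dimers, with FOS-type partners on the AP-1 site and with CREB- or ATF-type partners on the related cAMP response element. Nematode genes are compact, most of their introns are short, and the long ones often carry enhancers or the promoters of shorter transcripts of the same gene. Peaks in introns therefore raise the question of which genes carry JUN-1 inside their body and in what kind of intron.

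Sequences at some of the 25 strongest summits are shown first, because a few short words recur in them. Each is the plus strand of the ce11 (WBcel235) reference, from the RefSeq genome, in a window reaching 50 bp to either side of the summit base, or over the whole region where that was shorter. Capitals mark the GA repeat (GAGAGA, or TCTCTC on the other strand), the word CGTCTC (or GAGACG) and the AP-1 site TGANTCA. The strongest intronic peak, in Y111B2A.12, covered chrIII:12612616-12612714, and the next, in epg-9, is shown over chrIV:2602137-2602237. For vhp-1 the window is chrII:5336960-5337060, and for pqn-41 the windows are chrIII:1926566-1926666 and chrIII:1925393-1925493. For mnk-1, daf-14 and spop-1 they are chrII:10552082-10552182, chrIV:10252498-10252598 and chrIII:10096662-10096762. The window of pkg-2, chrIV:8527768-8527868, is included as a strong peak that holds none of the marked words. The windows were picked partly for these words and skip some stronger peaks. Among the 25 strongest intronic peaks the GA repeat was in 16 and CGTCTC in 10, and 6 held neither.
Y111B2A.12: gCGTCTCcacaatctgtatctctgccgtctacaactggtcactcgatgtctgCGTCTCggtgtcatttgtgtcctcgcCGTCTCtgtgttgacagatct
epg-9: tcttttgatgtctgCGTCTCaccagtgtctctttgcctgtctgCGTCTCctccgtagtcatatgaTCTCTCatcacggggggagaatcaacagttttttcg
vhp-1: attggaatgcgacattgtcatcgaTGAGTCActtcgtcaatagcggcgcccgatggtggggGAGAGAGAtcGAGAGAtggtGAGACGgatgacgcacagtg
pqn-41: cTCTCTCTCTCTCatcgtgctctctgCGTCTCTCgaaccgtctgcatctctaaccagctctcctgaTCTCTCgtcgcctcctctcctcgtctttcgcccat
pqn-41: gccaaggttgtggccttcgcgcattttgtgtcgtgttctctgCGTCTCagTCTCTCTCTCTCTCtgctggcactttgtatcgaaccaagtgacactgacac
mnk-1: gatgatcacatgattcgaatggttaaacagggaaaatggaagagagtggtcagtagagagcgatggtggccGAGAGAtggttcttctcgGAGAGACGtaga
daf-14: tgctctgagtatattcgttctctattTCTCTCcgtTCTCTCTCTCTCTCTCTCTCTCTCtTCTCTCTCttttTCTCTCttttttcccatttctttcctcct
spop-1: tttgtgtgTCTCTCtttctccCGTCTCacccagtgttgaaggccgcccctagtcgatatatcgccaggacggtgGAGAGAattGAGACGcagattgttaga
pkg-2: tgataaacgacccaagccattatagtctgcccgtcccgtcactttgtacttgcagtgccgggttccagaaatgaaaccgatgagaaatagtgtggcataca
The Y111B2A.12 window holds CGTCTC 3 times and no GA repeat, the epg-9 window CGTCTC 2 times with 1 GA repeat, and the daf-14 window is a long GA tract with 14 overlapping matches. The vhp-1 window is the strongest with an AP-1 site, and it also holds CGTCTC and 3 overlapping GA repeat matches.

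Signal below is the authors' own value per peak, with no scale stated in the labels or file headers, and it is ranked within a list only. Values of the 2 replicates are set side by side, though their scales may differ. Read depth could not be read from the lists. The 1999 intronic peaks ran from a signal of 16.8 to 207 with a median of 20.7, against a median of 21.8 over the whole joint list. The strongest stood at rank 35 of the joint list, and 23 of the 1999 lay in more than 1 gene. The deposited -log10 q-value was 3.01 at the strongest, in Y111B2A.12. It was 0.134 at a peak of 20.5 in lin-39, near the median signal, so the weaker intronic peaks may be background. A peak is called reproducible here where the authors' threshold on the irreproducible discovery rate kept it. That held for 67 of the 1999 intronic peaks, or 3.35% (exact binomial 95% interval 2.61 to 4.24), against 6.87% of the whole joint list. The share was 9.91% at autosomal promoter windows, 6.2% in autosomal intergenic sequence and 1.54% for autosomal summits in exons inside genes. The intronic share of the list rose towards its weaker end, from 7% of the first 100 ranks and 7.35% of those past rank 300 and up to 899 to 18.1% of those past rank 6000. Intervals here cover counting error over peaks only, and no test was run on differences between classes of peak.

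The peaks past the threshold were exactly the top 899 by signal, so strength and reproducibility cannot be told apart as labels. The weakest reproducible intronic peak, in Y53G8AM.8, had a signal of 49.6 at rank 898, and the strongest intronic peak outside the threshold, in the collagen gene col-159, had 49 at rank 937. The summits next to the rule's own edges were as follows. Between 1 and 100 bp outside a promoter window lay 134 intronic peaks, 3 of them reproducible, with a median signal of 20.7. The 3 include strong peaks described below, in epg-9 (204), pqn-41 (the peak of 118) and hlh-30 (the peak of 76.1). Just inside such windows, 139 summits that were not counted as intronic had a median of 21, with 1 reproducible. In the 100 bp beyond the 250 bp limit around small RNA genes lay 8 intronic peaks, 2 of them reproducible, with a median signal of 23.2. In the 100 bp inside it lay 7 excluded summits, 0 of them reproducible, with a median of 23.3. Away from these edges the rule did remove reproducible regions. Of 126 in no exon, 84 were left after the promoter windows and 67 after the small RNA step.

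Both replicate lists had a summit within 100 bp at 652 of the 1999 intronic peaks, or 32.6% (30.6 to 34.7), against 40.3% of the whole joint list. The share fell with rank, from 88.6% of the 44 intronic peaks past rank 300 and up to 899, to 66.5% of the next 224, up to rank 3000, and to 18.5% of 1281 beyond rank 6000. Of the 67 reproducible intronic peaks, 61 (91%) were matched in both lists, and of the other 1932 it was 591 (30.6%), while 162 (8.39%) were matched in neither. The 6 reproducible peaks without a match, in pqn-41, ppfr-1 (2 peaks), Y43F8B.2, T28B11.1 and ell-1, all overlapped a region of the list in question, with its summit 103 to 190 bp away. Matched summits of the 2 replicates lay a median of 35.5 bp apart. Across the 61 matched reproducible peaks the replicate signals had a Spearman correlation of 0.566, and across the 591 other matched peaks 0.299. Each is a description over peaks that share 2 libraries, and most weak intronic peaks were seen at summit level in only 1 replicate.

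**Figure D1:**
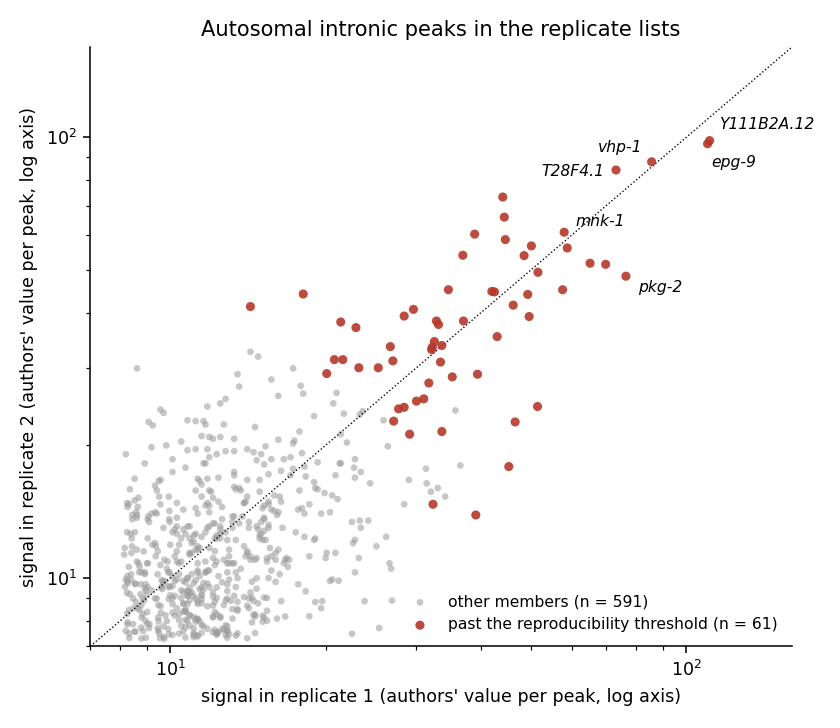
Signal of each intronic peak in replicate 1 (x axis) and replicate 2 (y axis), both log axes of the authors' value per peak, for the 652 matched in both lists; the dotted line marks equal values and red points are the 61 reproducible ones. The red points lie towards the upper right, led by Y111B2A.12, epg-9 and vhp-1, while the 591 grey points form a cloud with little order.

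The strongest intronic peaks are given first, with their values in each replicate list. The peak of Y111B2A.12, in intron 4 of 7 (7076 bp), had a signal of 207 in the joint list, 111 in replicate 1 and 98.3 in replicate 2. The peak of epg-9, an autophagy gene related to ATG101, lay in intron 2 of 5 (1824 bp) with 204 in the joint list, 110 in replicate 1 and 96.7 in replicate 2. These were the only intronic peaks narrower than 376 bp, at 99 and 132 bp. In vhp-1, the phosphatase that inactivates stress-activated MAP kinases of the JNK and p38 type, the strongest peak had 167, with 85.7 and 88 in replicates 1 and 2. It lay in intron 4 of 7, 913 bp past the nearest transcript start. The peak of T28F4.1 had 163, with 73.1 and 84.3. All 4 of these peaks were among the 68 strongest regions of each replicate's own list.

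Those of pqn-41 and daf-5 are described further on. In pkg-2, a cGMP-dependent protein kinase gene, the strongest peak had 124, with 76.4 in replicate 1 and 48.4 in replicate 2. In mnk-1, a kinase gene downstream of MAP kinases, it had 124, with 58 and 60.9. In zfp-1, a zinc finger gene related to AF10, it had 118, with 65.1 and 51.8, and in gei-4 it had 116, with 58.8 and 56.1. The peak of W06H8.6 had 111 (69.8 and 51.5) and that of C01B9.4 had 103 (44.6 and 58.6). Neither replicate list gave the higher value throughout: among the 24 of the 25 strongest peaks matched in both lists, replicate 1 was higher at 12. With scale and depth unknown, this does not say in which replicate a peak was stronger.

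More reproducible intronic peaks lay in pqn-41 than in any other of the 51 hosts. This gene encodes a glutamine-rich protein needed for the death of the male linker cell. It held 9 intronic peaks, and its 5 reproducible ones all lay in intron 14 of 21, of 10372 bp, with signals of 153, 118, 102, 92 and 62.6. The strongest had 100 in replicate 1 and no summit within 100 bp in replicate 2, where the nearest lay 167 bp away with 65.9. That summit also matched the neighbouring peak of 102, whose region overlaps, so replicate 2 did not separate these 2 of the 5. In replicate 1 the peak of 102 had a summit of its own, with 44.4. The peak of 118 had 44.1 and 73.2, that of 92 had 57.6 and 45.1, and that of 62.6 had 45.3 and 17.9. No joint-list summit lay in a promoter window of pqn-41, and the 4 other intronic peaks ran from 18.1 to 24.5.

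Other hosts also held several intronic peaks. The most were in spsb-1, with 11, none of them reproducible and the strongest at 37.3. In vhp-1 1 of 10 was reproducible, and the others were far weaker than its peak of 167. In hlh-30, the TFEB-type regulator of autophagy and lysosome genes, 3 of 9 were reproducible, at 86.6, 76.1 and 55.2, all in intron 2 of 8295 bp. In aakg-1, a gamma subunit gene of AMP-activated kinase, 1 of 9 was, at 66.5 (18.1 in replicate 1 and 44.1 in replicate 2). In zfp-1, 3 of 5 were reproducible, at 118, 67 and 57.4. The zfp-1 peak of 67 had 39.1 in replicate 1 and only 13.9 in replicate 2, and that of 57.4 had 31.7 and 27.7. The regions of the weaker zfp-1 peaks, at 38 and 30.9, overlapped those of 118 and 67. In pkg-2 3 of 8 were reproducible, at 124, 66.2 and 51.6, all in intron 4 of 6824 bp.

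**Figure D2:**
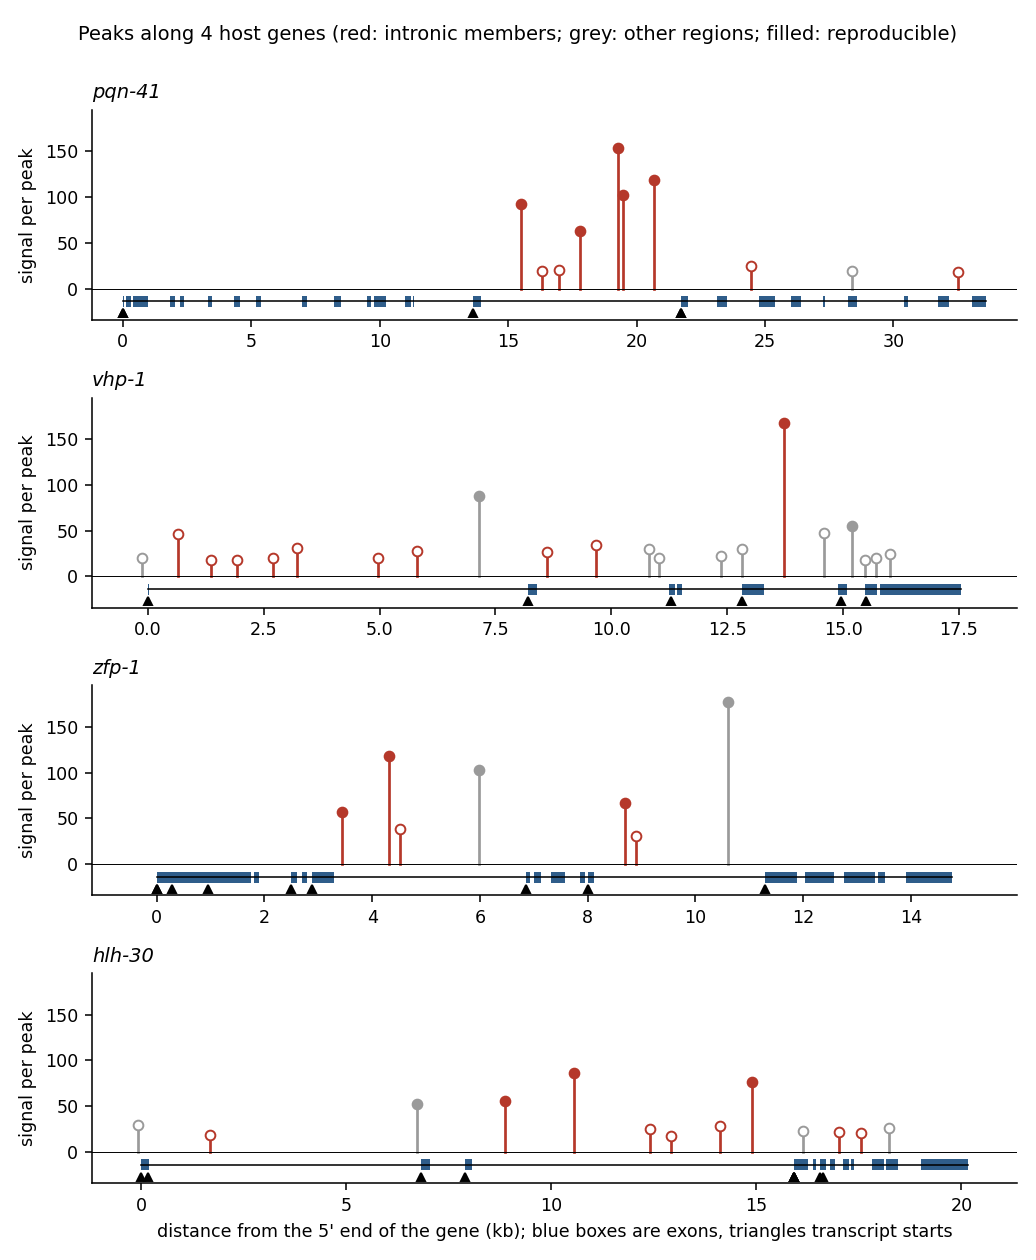
Peaks along pqn-41, vhp-1, zfp-1 and hlh-30, chosen after their values were seen: x axis, distance from the gene's 5' end in kb; y axis, the authors' signal per joint-list peak; red, intronic peaks, grey, other regions, filled, reproducible; boxes are exons and triangles transcript starts. In pqn-41 the 5 filled red peaks stand in 1 intron, and in vhp-1 a single intronic peak of 167 stands over 9 weak ones.

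Long introns held most of the reproducible intronic peaks. Introns over 3000 bp held 52 of 67, or 77.6% (65.8 to 86.9), against 620 of the 1932 other intronic peaks, or 32.1% (30 to 34.2). The intervals treat each peak as separate, though 10 of the 51 hosts held more than 1 reproducible peak. All intervals over the 67 may therefore be too narrow. Of the 22.1 Mb that the rule could have chosen, 21.6% lay in such introns. This gave 10.9 reproducible peaks per Mb in introns over 3000 bp, against 1.31 in those over 1000 and up to 3000 bp, 0.589 in those over 500 and up to 1000 bp and 0.653 in shorter ones. All 1999 intronic peaks varied less, with 141 per Mb in introns over 3000 bp and 65.5 to 94.4 per Mb in the others. The median intron length was 5920 bp for the reproducible peaks, 1150 bp for the others and 981 bp over eligible bases. Exceptions were the peak of ZC21.8 (80.5; 43 and 35.3 in replicates 1 and 2) in an intron of 127 bp and that of W06H8.6 (111) in one of 542 bp. In introns this short the region itself reaches exons: the 376 bp region of a peak overlapped an exon at 20.9% of reproducible and 51.9% of other intronic peaks.

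**Figure D3:**
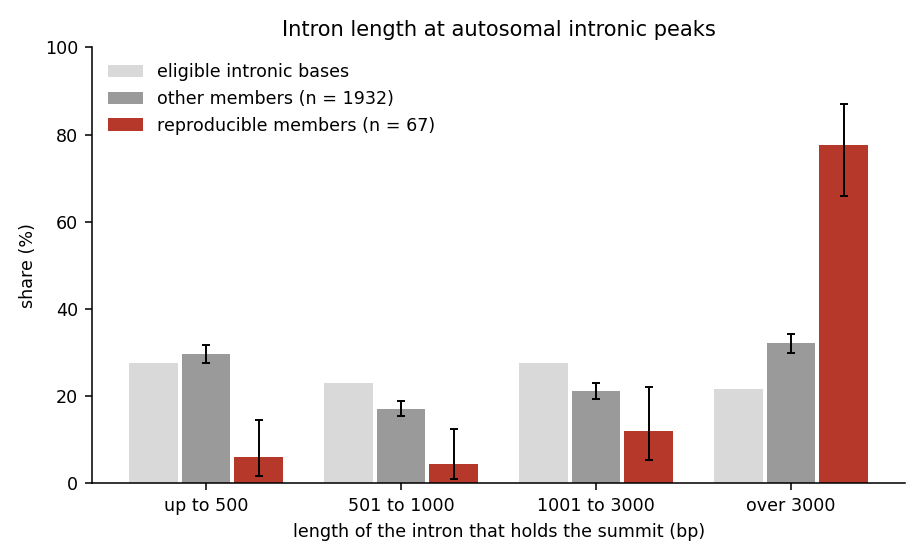
Share of eligible intronic bases, of other intronic peaks (n = 1932) and of reproducible intronic peaks (n = 67) by the length of the intron that holds the summit; bars are percentages and whiskers exact binomial 95% intervals over peaks. Introns over 3000 bp hold 77.6% of the reproducible peaks, 32.1% of the others and 21.6% of the bases.

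The place of the intron within its gene was examined next. The first intron of the host held 24.9% (23 to 26.9) of all intronic peaks and 20 of 67 reproducible ones, or 29.9% (19.3 to 42.3), against 20.4% of eligible bases. Intron 4 or later held 48.2% of all intronic peaks, 46.3% of the reproducible ones and 50.5% of bases. Many reproducible peaks lay between alternative starts of their host. A further start of the same gene lay downstream of 50 of 67, or 74.6% (62.5 to 84.5), against 35.8% of the other intronic peaks and 23.3% of eligible bases. Only 14.9% of the reproducible peaks lay in a gene with a single annotated start, against 38% of the others and 50.3% of bases. The distance to the nearest start of the host had a median of 1750 bp in both sets. Long introns and multiple starts occur together in these genes, and their parts were not told apart.

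Such positions can be followed in single genes. The peak of daf-16, the FOXO factor of insulin signalling, lay in intron 3 of 11 (12401 bp), 1248 bp past a start and upstream of 4 others, with a signal of 97.6 (48.5 and 53.9 in replicates 1 and 2). The peak of daf-14, a Smad of the dauer TGF-beta pathway, lay in intron 1 of 5, 1118 bp before a downstream start, with 99.3 (38.9 and 60.3). In daf-5, the Ski/Sno-type partner in the same pathway, intron 1 of 14446 bp held peaks of 104 (50.1 and 56.7) and 53 (27.1 and 22.7), and in skn-1, the Nrf-type stress factor, intron 1 held a peak of 77.1 (37 and 38.3), 1658 bp before a start. By contrast, the peak of gcn-1, an activator of the GCN2 kinase, lay 20218 bp past the nearest start, in intron 11 of 27, with 99.7 (51.6 and 49.4), and it passed the 250 bp limit around small RNA genes by no more than 100 bp. The peaks of nhr-19, a nuclear receptor gene (93.7; 49.3 and 44), and of let-526, an ARID subunit gene of SWI/SNF complexes (80; 46.2 and 41.6), likewise had no further start downstream.

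Of 14348 autosomal genes with at least 1 base the rule could choose, 1303 hosted an intronic peak (9.08%) and 51 a reproducible one (0.355%). Most hosts, 974 of 1303, held 1 peak, and 10 of the 51 held more than 1 reproducible peak. Gene size weighs heavily here: the 10% of genes with most eligible bases held 51.2% of those bases, 55% of intronic peaks and 79.1% of reproducible ones. Hosts of reproducible intronic peaks also carried a reproducible peak at one of their promoter windows in 14 of 51 cases (27.5%, 15.9 to 41.7), against 5.11% of hosts of other intronic peaks only and 2.95% of genes with none. These shares were not corrected for the number of starts, and so of promoter windows, in each gene. In zfp-1 the strongest promoter-window peak had a signal of 177, above its intronic 118, while the promoter-window peaks of epg-9, daf-5, daf-16 and gcn-1 reached no more than 25.7, 20.3, 20.3 and 16.8. Their intronic peaks were thus the stronger ones.

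The gene lists are described by counts beside these backgrounds of 9.08% and 0.355%, which do not correct for gene size. Most of the intronic peaks counted lie outside the threshold, so hosting one does not show that JUN-1 was there. Among bZIP factors, the family of JUN-1 itself, 9 of 24 genes hosted an intronic peak (37.5%, 18.8 to 59.4), and 4 a reproducible one: skn-1 (77.1), zip-5 (63.5; 32.5 and 34.4 in replicates 1 and 2), crh-2, a CREB-type gene (54.3; 20.8 and 31.3), and zip-3 (51.4; 27.7 and 24.2). Their median eligible length was 2050 bp, against 648 bp over all genes, and the list held 286 intronic peaks per eligible Mb against 90.5 overall. fos-1, the FOS relative and candidate partner, held 5 intronic peaks, the strongest at 42.7 and seen in replicate 2 only (26.7). crh-1 (CREB) held 4, to 31.3, and atf-7 held 2, to 32.4. No intronic peak lay in jun-1 itself, in the JNK genes kgb-1 and jnk-1, or in zmp-1, cdh-3, egl-1 and unc-119. plc-1 and him-4 are on X and outside the rule.

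Signalling lists had a few strong hosts each. The JNK and p38 list had 5 hosts of 19 genes and 352 intronic peaks per Mb, with vhp-1 its single reproducible host, and vhp-1 (10) and tir-1 (8) held most of the list's 23 peaks. The kinase gene dlk-1 and the adaptor tir-1 reached 40 and 33.7. The TGF-beta, insulin and steroid list had 9 of 25, with daf-5 and daf-14 reproducible. The Ras and epidermal growth factor list had 6 of 19, led by mpk-1, the ERK kinase (72.4; 28.4 and 39.3), and lin-3, its ligand gene, had 1 peak at 19.6. Wnt and Notch genes had 10 of 51, led by lag-1, the DNA-binding effector of Notch (59.8; 21.4 and 38.1). Of T-box, GATA, forkhead and SOX factors 6 of 36 were hosts, with daf-16, egl-27 (77.5; 14.3 and 41.3) and fkh-7 (59.5; 33.4 and 30.9) reproducible. Nuclear hormone receptors had 26 of 240 (10.8%) with 1 reproducible host, nhr-19, and chromatin co-regulators 10 of 89 with egl-27 and mdt-26 (59; 46.6 and 22.6).

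Several other lists had no reproducible host. Over all genes the share was 0.355%, at which lists of this size would mostly have none, so this is not a trait of these lists. Genes for axon guidance and adhesion had 16 hosts of 48 (33.3%) and 35 intronic peaks, none reproducible and the strongest, in zig-1, at 34. Their median eligible length of 5530 bp was the longest of the 22 lists, and at 89.5 intronic peaks per Mb they stood near the 90.5 of all genes. The synaptic list had 13 of 47 (to 33.3, inx-20), the muscle list 11 of 37 (to 40.7, lev-11) and the basement membrane and matrix list 6 of 22 (to 39.7, vab-10). A list's name does not describe each of its genes. Heterochronic and RNA-binding regulators had 6 of 38 (to 33.6, lin-42) and homeobox factors 5 of 67 (to 20.5, lin-39). Potassium channels had 7 of 50, ligand-gated channels 7 of 75, peptide and amine receptors 9 of 78, and other channels 9 of 48, with no peak over 26.4 (itr-1). Per Mb the first 3 of these channel and receptor lists held 33.5 to 41.5 intronic peaks, below the 90.5 of all genes. Chemoreceptor genes, a far larger list, had 25 hosts of 1239 genes (2.02%) and 31.8 intronic peaks per Mb. Of the 1239, 2 were reproducible hosts, or 0.161%, below the 0.355% of all genes. These were srt-47 (57.8; 31 and 25.5 in replicates 1 and 2) and srt-52 (50.6; 32.3 and 14.7). Cuticle collagens had 6 of 93, up to the 49 of col-159, and ribosomal protein genes, whose introns leave a median of 54 eligible bp, 0 of 29, which allows a share of up to 11.9%.

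Density was also set out by chromosome. Chromosome III held 21 of the 67 reproducible intronic peaks, or 4.79 per eligible Mb, of which 5 were in pqn-41, against 3.86 on IV, 3.51 on II, 1.83 on I and 1.49 on V. All intronic peaks ran from 79.2 per Mb on I to 102 on III. The central 50% of each chromosome held 59.4% (57.2 to 61.5) of all intronic peaks and 41.5% of eligible bases. For reproducible ones it was 53.7% (41.1 to 66), and on III 6 of 21.

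GC content was higher at the summits of reproducible intronic peaks, with a median of 47.5% over the window around the summit, than at the others (35.6%) or in 218732 eligible intronic tiles of the same length (32.7%, and 34.7% in introns over 3000 bp). Of these 67 windows 66 held no 31-base word found elsewhere in the genome, and 4 (5.97%) were soft-masked as repeats over at least 50% of their length, against 29.5% of other intronic peaks and 51.9% of tiles. Over all 899 reproducible peaks of the series the median was 48.5%, with a range from 21.8% upwards.

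The GA repeat shown in the windows above, GAGAGA on either strand, was in 36 of the 67 reproducible windows, or 53.7% (41.1 to 66), and in 16 of the 25 strongest. It was in 9.06% (7.82 to 10.4) of the other intronic peaks, in 6 of 134 windows 500 bp to either side of the reproducible summits (4.48%), and in 3.91% of tiles. In introns over 3000 bp the shares were 59.6% of 52 reproducible peaks, 17.7% of others and 6.62% of tiles, and 5 of 15 reproducible peaks in shorter introns held it. Among reproducible peaks elsewhere in the series the share was 27.6% (24.6 to 30.8) of 832. By distance, 50.7% of reproducible intronic peaks held it in the 100 bp on one side of the summit and 44.8% on the other, falling to 5.97% beyond 400 bp. GC content moved with the repeat between these sets, and its part in these shares was not tested.

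**Figure D4:**
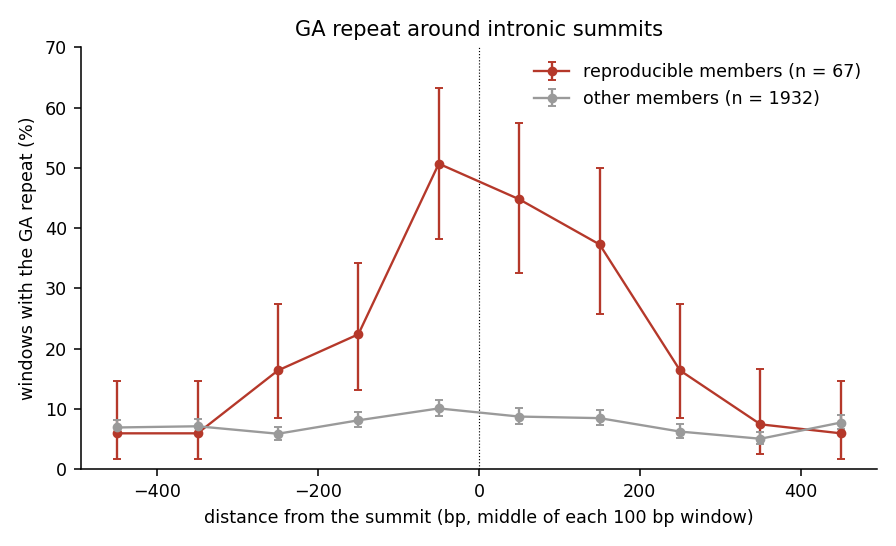
Share of intronic peaks with the GA repeat in each 100 bp window (y axis, percent) by distance of the window from the summit on the plus strand (x axis, bp), for 67 reproducible and 1932 other peaks; whiskers are exact binomial 95% intervals over peaks. The reproducible peaks rise from 5.97% at the edges to 50.7% beside the summit, and the others stay between 5.07% and 10.1%.

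A search of all 2080 words of 6 bases, counted with their reverse complements, put GAGAGA first and its shifted form AGAGAG second, followed by CGTCTC. The last of these was picked from these same windows, so its count there is a description: 24 of 67 (35.8%) reproducible intronic peaks held it, against 3.73% of flanks, 5.07% of other intronic peaks and 1.94% of tiles. In windows the search did not use, the 832 reproducible peaks outside autosomal introns, it was in 17.3% (14.8 to 20.1). The longer word CTGCGTCTC, which contains it, was in 12 of 67, among them the peaks of Y111B2A.12, epg-9, pqn-41 (118 and 102), W06H8.6 and spop-1, and in 0.453% of tiles. GAGAGA and CGTCTC can overlap, as in GAGAGACG of the mnk-1 window, and 13 of 67 windows held both, 47 (70.1%) at least 1 and 20 neither. The related word CTCTCC was in 26.9% of reproducible intronic peaks and 5.22% of their flanks.

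The sites known for JUN-type proteins were found at few of these summits. TGANTCA was in 3 of 67 reproducible windows, or 4.48% (0.933 to 12.5), against 3.31% of other intronic peaks and 2.09% of tiles. Among the 832 reproducible peaks elsewhere in the series it was in 4.45% (3.15 to 6.08), so the low share was not particular to introns. The 3 intronic windows with it were in vhp-1 (167), Y111B2A.12 (the peak of 91.5) and spat-2 (77.2). The consensus form TGACTCA, which is contained in TGANTCA, was in the vhp-1 and spat-2 windows only. The full cAMP response element TGACGTCA was in 0 of 67, which allows up to 5.36%, and its core TGACGT in 4. A word missing from a window says nothing of whether the factor was there.

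Other preset words split both ways. The E-box CACGTG was in 8 of 67 reproducible windows (11.9%, 5.3 to 22.2), in 0 of 134 flanks and in 2.43% of other intronic peaks. The 832 reproducible peaks elsewhere in the series held it in 4.09% (2.85 to 5.66). Among the strongest intronic peaks of each replicate's own list it was in 4 of 80 (5%) and 5 of 75 (6.67%). The hosts of the 8 were W06H8.6, Y111B2A.12, ppfr-1, Y62E10A.13, acs-13, fkh-7, hlh-30 and daf-5. The GATA-type site CTTATCA was in 7 of 67 (10.4%, 4.3 to 20.3), in egl-27, pkg-2 (2 peaks), zip-5, klf-1, gstk-2 and daf-5, none of them among the 25 strongest, against 1 of 134 flanks and 1.21% of tiles. Of the 832 reproducible peaks elsewhere 3.49% (2.35 to 4.97) held CTTATCA. The CCAAT box was in 11.9% of reproducible windows and 20.9% of flanks, the CA repeat CACACA in 13.4% and 6.72%, the splice-like tract TTTTCAG in 2.99% and 7.46%, and the run TTTTTTTT in 5.97% and 8.96%. For these last 4 the intervals of windows and flanks overlap. In tiles the CA repeat was in 3.71%, TTTTCAG in 15% and TTTTTTTT in 19.7%, each outside the interval of the reproducible windows (6.33 to 24, 0.364 to 10.4 and 1.65 to 14.6), and the CCAAT box in 19%.

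**Figure D5:**
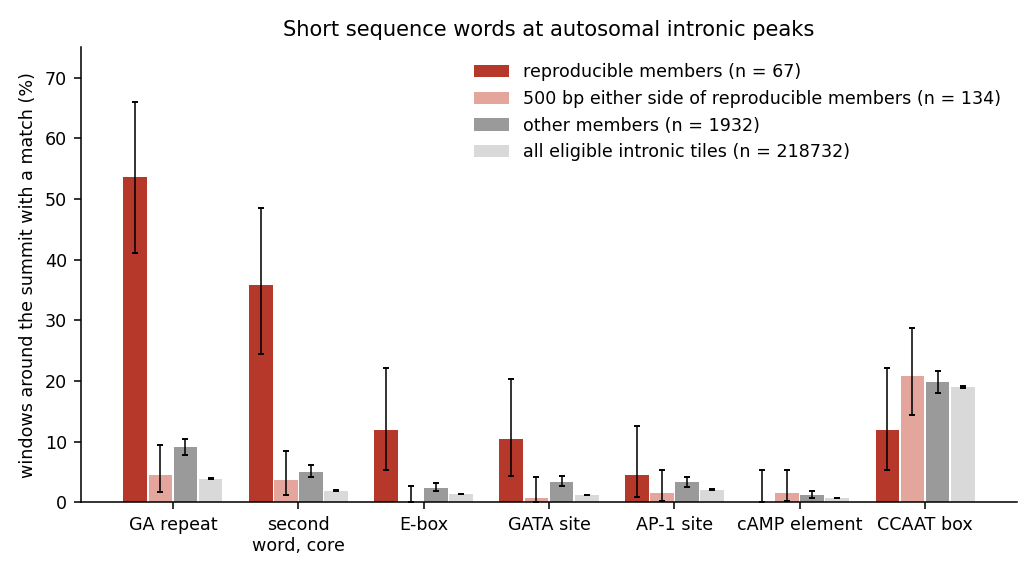
Share of windows around the summit (y axis, percent) with each of 7 short words, for reproducible intronic peaks, their flanks, other intronic peaks and eligible intronic tiles; whiskers are exact binomial 95% intervals, and the second word is CGTCTC, picked from the reproducible windows. The GA repeat stands at 53.7% and the AP-1 site at 4.48% of reproducible intronic peaks.

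The same position rule was applied to each replicate's own 899 strongest regions. It gave 80 intronic peaks in replicate 1 and 75 in replicate 2, of which 63.8% and 70.7% lay in introns over 3000 bp. The GA repeat was in 52.5% (41 to 63.8) and 41.3% (30.1 to 53.3), CGTCTC in 25% and 33.3%, and the median GC was 45.5% and 47.5%. Many of these peaks are the same sites as the 67, from which CGTCTC was picked, so its shares here are a description. The E-box shares given above were lower in each replicate list than in the 67, and CTTATCA was in 8.75% and 8%.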

How the data were processed

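Both replicates were of 1 group. The deposited lists give, per the labels, peak regions on the ce11 build for replicate 1 (19396 regions), replicate 2 (23742), both jointly (13085) and the 899 past the reproducibility threshold. Per the files' descriptions, the authors derived them from alignments and a control, with background regions kept in all but the last. The aligner and the caller, with their settings, are not given in the sources used. Calling against a control lowers regions of high background, and poorly mappable introns can be missing. The authors' signal per peak ranked peaks within a list. The deposited -log10 q-value per peak was read and set no threshold. Read depth is unknown, since the lists hold no counts, so its precision cannot be given. Lists on the ce10 build were not used.

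Summits were set against the WBcel235 (ce11) annotation of Ensembl release 115 with 19985 protein-coding genes. Introns were numbered in a host transcript, and the bases that pass every step of the rule (eligible bases) and their tiles of the word window's length (50 bp to either side of the summit base) served as background. Words were searched on both strands of the RefSeq WBcel235 genome, 12 preset and 2 (CGTCTC, CTGCGTCTC) picked from the search itself. Replicate summits matched within 100 bp. Intervals are exact binomial (Clopper-Pearson) at 95% over peaks, and no p-values were computed. Genes were named as hosts of the 25 strongest intronic peaks, the 5 hosts with most, up to 3 per list for 22 lists with the strongest peaks, and 15 preset genes; 1 of these lists is not reported here. Genes outside that rule (spat-2, ppfr-1, Y43F8B.2, T28B11.1, ell-1, zip-3, Y62E10A.13, acs-13, klf-1, gstk-2 and Y53G8AM.8) were chosen after their values were seen. The members and lists were chosen with earlier results of these data known. Alternatives changed the exons, promoter window, small RNA distance, matching distance, threshold, intron numbering and word window, or left out a replicate. The code was tested on simulated data. Scripts ran in Python 3.11.15 with scipy 1.17.1, pandas 2.3.3, numpy 2.4.6 and, for plots, matplotlib 3.10.9.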

Additional observations from a re-analysis of the deposited data

How the results depend on the processing

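Of 51 values recomputed under another setting with both replicates, 41 moved by less than their interval or less than 1.5 times. The number of intronic peaks ran from 1565 to 2245 across exon, promoter and small RNA settings. The share matched in both replicates was 20.7% within 50 bp, 46.2% within 200 bp and 54.2% for any overlap. The first-intron share was 22.2% with promoter windows from 2000 bp upstream, 37.4% counting the first intron of any transcript, and 29.9% in reproducible peaks only. The GA repeat share was 5.05% within 25 bp of the summit, 18.5% within 100 bp and 53.7% in reproducible peaks. The stronger part of the threshold list left 1.7% of members. Matching distance and window length change these shares by construction, and for the promoter window and the reproducible subset the cause was not tested. Using 1 replicate's own list gave 3678 to 3855 intronic peaks, since those lists are longer, shares in the first intron of 22 to 22.6% and GA repeat shares of 7.21 to 8.82%. Of the 1999 intronic peaks of the joint list, 3.4 to 3.8% were among the strongest of a single replicate's list. No paired analysis was possible because there was 1 group only. With 67 reproducible intronic peaks, shares of a few percent have wide intervals, and depth could not be examined.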

Other observations

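Genes of the annotation's ncRNA class, which the rule on small RNA genes does not cover, lay within 250 bp of 10 of the 67 reproducible intronic peaks (14.9%, exact binomial 95% interval 7.4 to 25.7), among them the peaks of T28F4.1, W06H8.6, daf-16 and let-526. The share was 3.21% of the other intronic peaks, and 2.3% of eligible bases lay that close. The piRNA genes lay within 250 bp of 1 of 67 reproducible and 3.05% of other intronic peaks, against 3.74% of eligible bases. Another intronic peak lay within 1000 bp of 28 of the 67 reproducible peaks (41.8%, 29.8 to 54.5) and of 19.5% of the others. Some of these neighbours are overlapping regions, as in zfp-1, mnk-1, daf-5 and T28F4.1, so the shares do not count separate sites.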
